A study of Macaca fascicularis with 2 samples.

Results

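S100A8 and S100A9 high myeloid cells were 73 of 27353 barcodes in a droplet-based single-cell RNA sequencing study of cynomolgus monkey (Macaca fascicularis) testis after artificial unilateral cryptorchidism. A barcode was a member if it had at least 500 detected genes and at least 20 UMIs (unique molecular identifiers, which count captured RNA molecules) of S100A8 and S100A9 together per 10,000 of its UMIs. It also had to hold a UMI of at least 2 of TYROBP, FCER1G, LYZ, AIF1 and CD14, and fewer than 30 UMIs of the stromal gene DCN per 10,000. The study placed 1 testis in the abdomen (UAT) and compared it with the opposite testis in the scrotum (CST), and each gave 1 library. UAT gave 61 members of 12352 barcodes, or 0.494% (exact binomial 95% interval 0.378 to 0.634), and CST gave 12 of 15001, or 0.0800% (0.0413 to 0.140). Age, number of animals and time since surgery were not given in the sources used here. Both tissues were minced, digested with collagenase, dispase and DNase and depleted of red blood cells before capture. With 1 library per position nothing could be tested between animals or positions, and every interval covers counting error only.

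S100A8 and S100A9 encode the calcium-binding subunits of calprotectin, an abundant cytosolic protein of neutrophils and monocytes that acts as a danger signal when released. Neutrophils and classical monocytes are short-lived blood leukocytes that enter tissue through adhesion to vessel walls. The resident macrophages of the testis interstitium instead carry the complement C1q genes, scavenger receptors and class II molecules that present antigen.

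The members were chosen by their measured S100A8, S100A9, DCN and myeloid marker UMIs, so these levels are a description. In the 61 UAT members S100A8 ran from 0 to 757 UMIs per 10,000 with a median of 96.5, and S100A9 ran from 0 to 669 with a median of 66.8. The 2 genes together ran from 20.5 to 1411 per 10,000 with a median of 145, and 26 members held at least 200. Levels therefore spread widely, and no gap marked the limit: the 3 lowest members held 20.5, 21.8 and 23.9 per 10,000. The 3 highest barcodes below the limit that met the rest of the rule held 19.98, 19.5 and 19.3. C1Q macrophages (C1QA, C1QB and C1QC together at least 20 per 10,000, S100A8 and S100A9 under 20, rest of the rule met) reached 19.98 at most. S100A8 and S100A9 were nevertheless concentrated in few barcodes. The 61 members held 12499 of the 13973 UMIs of both genes in UAT (89.5%), and 5 members held 41.5% of the members' UMIs. Of 359 UAT barcodes gated as T or NK cells, which should lack these genes, 3 (0.836%) held a UMI of either, at a median of 3077 UMIs per barcode against 8004 in the members. Their gate required S100A8 and S100A9 under 20 per 10,000 and fewer than 2 of the 5 myeloid genes of the rule. This background, used again below, was therefore fixed in part by the gate.

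The 5 myeloid genes of the rule are no check of the label, since every member had to hold a UMI of at least 2 of them. TYROBP and FCER1G, which encode signalling adaptors of myeloid receptors, and LYZ, the lysozyme gene, were each seen in 57 of the 61 UAT members. AIF1 was seen in 52 and CD14, the lipopolysaccharide co-receptor, in 51, and 46 members held all 5. The label covered more than 1 kind of cell, so the members were split by 3 features, with the limits chosen after their values were seen. C1Q-positive members held at least 5 UMIs of C1QA, C1QB and C1QC per 10,000. Neutrophil-like members held less C1Q, no UMI of CD74 or Mafa-DRA (both class II genes), fewer than 30 UMIs of LYZ per 10,000 and fewer than 3000 UMIs in all. Monocyte-like members were the other C1Q-low barcodes, apart from 1 barcode rich in granule genes and 1 rich in immunoglobulin transcripts. UAT held 13 neutrophil-like, 31 monocyte-like and 15 C1Q-positive members, and CST held 6, 4 and 1 and a further granule-gene barcode.

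**Figure D1:**
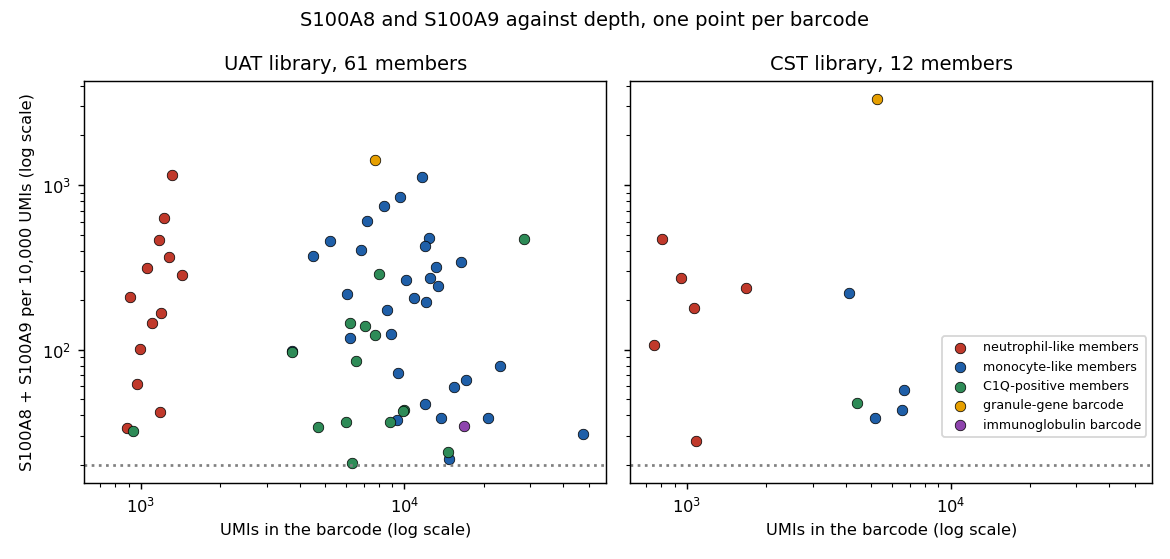
S100A8 plus S100A9 UMIs per 10,000 (y axis, log scale) against total UMIs (x axis, log scale) for every member of the UAT and CST libraries, each point 1 barcode coloured by kind, with the dotted line at the limit of 20. The neutrophil-like members form a low-RNA group between 890 and 1434 UMIs in UAT, while their S100A8 and S100A9 levels overlap those of the monocyte-like members.

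The neutrophil-like members were small barcodes. They held 890 to 1434 UMIs (median 1170) and 581 to 744 detected genes, against 3751 to 47389 UMIs (median 11608) in the monocyte-like members, a difference that the split itself used in part. When every barcode was thinned to 800 UMIs the median number of detected genes was 516 in neutrophil-like, 532 in monocyte-like and 532 in C1Q-positive members. Mitochondrial transcripts made up a median of 0.895% of UMIs in neutrophil-like, 4.99% in monocyte-like and 4.04% in C1Q-positive members. S100A8 and S100A9 did not separate the first 2 kinds, with summed medians of 209 and 207 per 10,000.

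Receptors of neutrophils marked the neutrophil-like members. CSF3R, the receptor for granulocyte colony-stimulating factor, ran from 0 to 51.6 UMIs per 10,000 (median 15.6) in them and from 0 to 5.18 (median 0.61) in monocyte-like members. It was seen in 11 of 13 and 16 of 31, and after thinning in 10 of 13 and 3 of 31, with 0 of 359 T or NK barcodes before and after. CSF3R was thus high in most neutrophil-like members, with overlap at the low end. The chemokine receptor gene CXCR2 was seen in 5 of 13 neutrophil-like and 2 of 31 monocyte-like members, and MMP25, a membrane-bound protease gene of neutrophils, in 9 and 7. Summed over 14 neutrophil markers, the neutrophil-like members held 56.2 to 156 UMIs per 10,000, the monocyte-like members 0 to 95.04 and the C1Q macrophages 0 to 138, so the ranges overlapped.

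The neutrophil-like members differed from the monocyte-like members in single inflammatory genes. Of 4 genes compared from the cytokine list, which also holds the receptor gene IL1R2, OSM and IL1R2 were higher. AREG was lower (0 UMIs, at least 6.78-fold), and the list summed to 4345 and 4650 CPM. Over all genes compared 43.4% were higher and 32.1% lower. The chemokine gene CCL3 had 0 UMIs against 238 and was at least 3.05-fold lower. AREG and CCL3 reached the level compared through the monocyte-like members alone, and IL1R2 through the neutrophil-like members alone. Their direction was therefore fixed and is not read as a result. CXCL8, the chief neutrophil chemoattractant gene, ran from 0 to 726 UMIs per 10,000 (median 209) in them and from 0 to 84.3 (median 8.04) in the monocyte-like members. SOD2, the mitochondrial superoxide dismutase induced by NF-kB, ran from 30.6 to 272 (median 212) against 0.802 to 59.2 (median 13.3). Both genes were higher in most neutrophil-like members, but 3 of the 13 had no CXCL8 UMI and the SOD2 ranges overlapped. Summed over cells, CXCL8 stood at 24986 and 1868 CPM (UMIs of the gene scaled to a common total of all UMIs in the group), a ratio of 13.4 (11.8 to 15.2), and SOD2 at 19147 and 1481 (12.9, 11.2 to 14.9). PTGS2, which encodes the inducible cyclooxygenase of prostaglandin synthesis, stood at 6111 and 1225 CPM (4.99, 3.94 to 6.26). SORL1, a sorting receptor gene, ran from 6.97 to 67.4 per 10,000 in neutrophil-like members and from 0 to 2.77 in monocyte-like members. The genes examined cell by cell were those of the gene lists and a set added by hand, SORL1 among it, and not all features. Among them SORL1 was the only gene whose neutrophil-like range lay wholly above both other kinds. Its ratio of summed CPM was 62.7 (34.8 to 118).

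**Figure D2:**
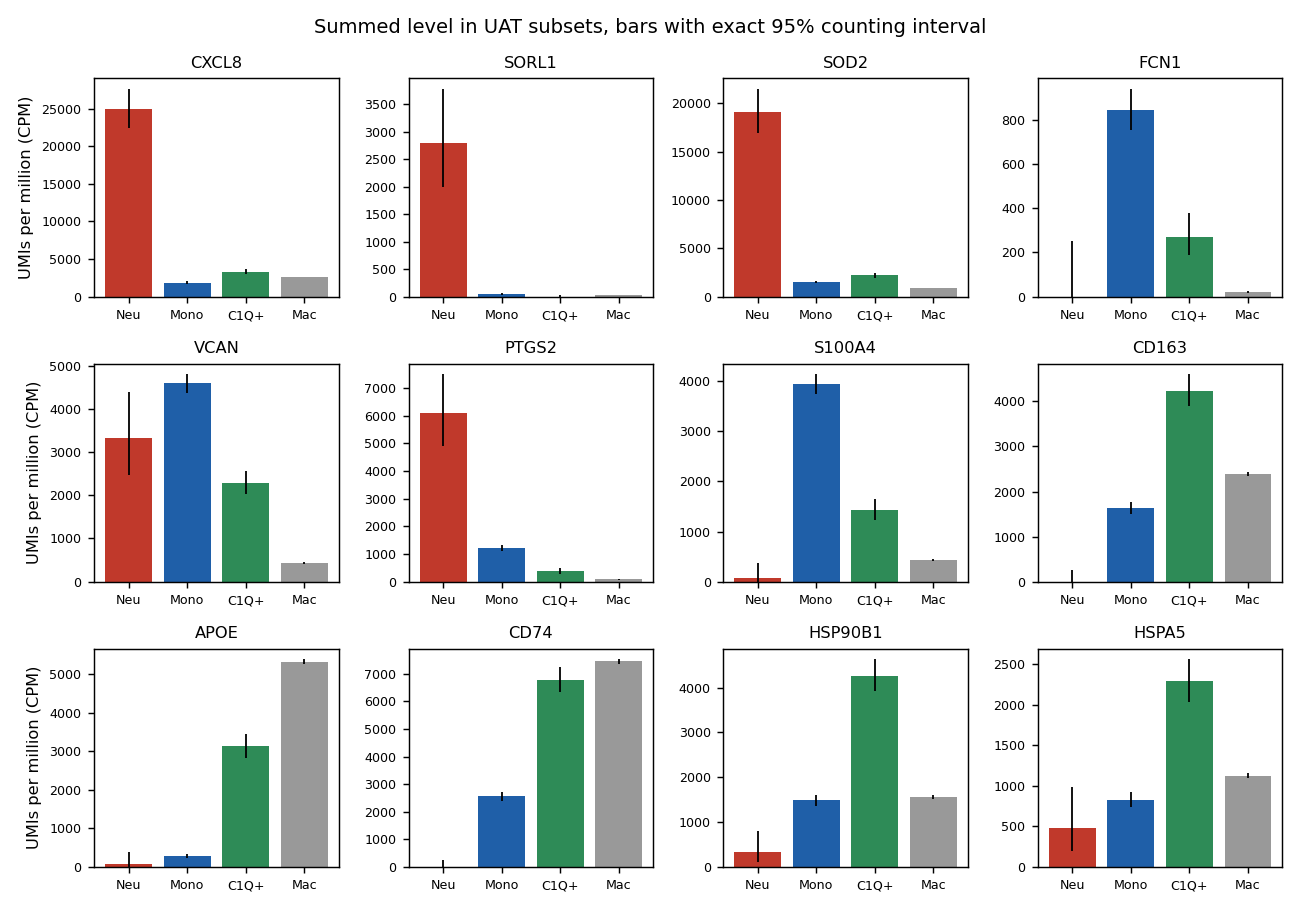
Summed level in CPM (y axis) of 12 genes in neutrophil-like, monocyte-like and C1Q-positive members and C1Q macrophages of UAT, with exact Poisson 95% intervals of counting error as bars. CXCL8, SOD2 and SORL1 stand highest in the neutrophil-like members, and FCN1 and S100A4 in the monocyte-like members.

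Of 486 genes at 500 CPM or more in either kind, 211 (43.4%) were at least 2-fold higher in neutrophil-like than in monocyte-like members and 156 (32.1%) at least 2-fold lower, with a median log2 ratio of 0.58. The 13 neutrophil-like members summed to 14728 UMIs, so that 3 UMIs there were 204 CPM, and the part of depth in these shares was not tested. A gene could reach 500 CPM through 1 kind alone, which fixes its direction, so counts over lists are not read as results here. Of 14 neutrophil markers 5 reached that level, with CSF3R, CXCR2, TNFRSF10C and MMP25 doing so through the neutrophil-like members alone. Among genes of NF-kB feedback, NFKBIA stood at 2376 against 818 CPM (2.91, 1.99 to 4.13). TNFAIP3, an inhibitor of the same pathway, stood at 1969 against 293 CPM, but 1 cell held 86.2% of its UMIs. The cathelicidin gene CAMP (4.94, 3.15 to 7.50), the oxidase subunit gene NCF1 (7.22, 3.20 to 14.9) and CEBPB, a transcription factor of inflammatory myeloid cells (4.99, 3.84 to 6.40), were also higher. IL1R2, the decoy receptor for interleukin 1, was seen in 6 of 13 neutrophil-like members and 1 of 31 monocyte-like members.

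Many monocyte genes had no UMI in the neutrophil-like members. Of the genes examined cell by cell, FN1 (fibronectin), ANXA2 (annexin), CSTA (cystatin) and FCN1 had a UMI in all 31 monocyte-like members and in 0 of 13 neutrophil-like members. These ranges did not overlap at full depth, at medians of 11608 and 1170 UMIs. After thinning to 800 UMIs, FCN1 was seen in 14 of 31 and 0 of 13, so its ranges then overlapped at 0. CD163 was seen in 15 of 31 and 0 of 13 after thinning. On the sums, FN1 was at least 17.1-fold lower, ANXA2 at least 8.66-fold, CD163 at least 8.02-fold and FCN1 at least 4.14-fold, each taking 3 UMIs as the limit of a count of 0. S100A4, a further S100 family gene, ran from 4.19 to 111 UMIs per 10,000 (median 42.2) in the monocyte-like members and had 1 UMI in the 13 neutrophil-like members, against 1507 (ratio 0.0172, 0.000436 to 0.0962). S100A6 was lower too (0.125, 0.0624 to 0.224), whereas S100A11 was higher (2.51, 1.98 to 3.13), so the S100 family was not uniform. The cytosolic chaperone genes HSP90AA1 (0.151), HSP90AB1 (0.122) and HSPA8 (0.134) and the glycolysis genes GAPDH (0.206), ENO1 (0.220) and LDHA (0.391) were also lower, with 2 to 7 UMIs each in the neutrophil-like members.

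**Figure D3:**
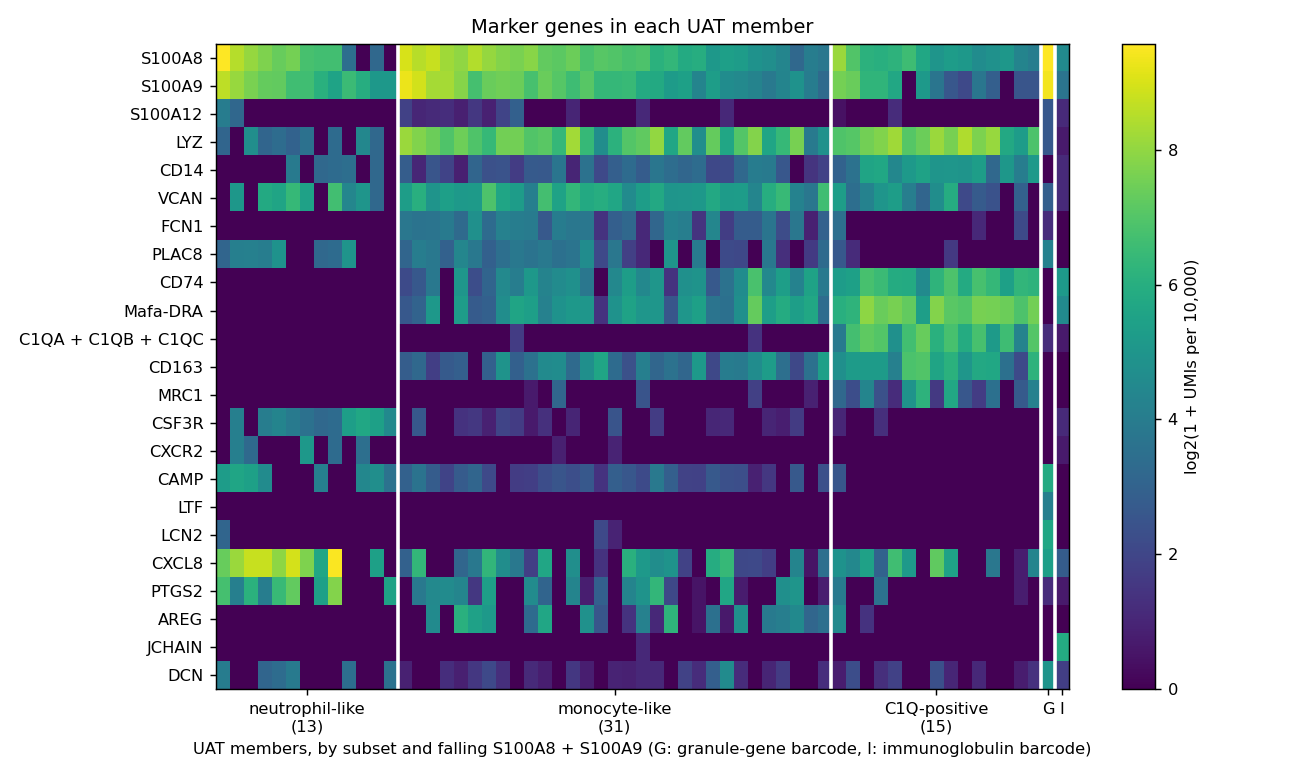
UMIs per 10,000 on a log2(1 + value) colour scale for 23 marker genes (rows) in each of the 61 UAT members (columns), ordered by kind. At full depth FCN1 is seen in all 31 monocyte-like columns and CD163 in 30, both in 0 of the 13 neutrophil-like columns. CXCL8 and CSF3R reach their highest values in the neutrophil-like columns. G is the granule-gene barcode and I the immunoglobulin barcode.

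Classical monocyte markers were mixed in the monocyte-like members. Of 9 outside the genes that chose the groups, 5 were at least 2-fold higher than in C1Q macrophages, among them FCN1, VCAN and CCR2. At least 2-fold lower were 3, namely CD36, CLEC4E and CSF1R. CD14 was lower too, but it was a gene of the rule for both groups. Over all genes compared 5.67% were higher and 9.53% lower. FCN1, the ficolin gene of blood monocytes, ran from 0.844 to 26.7 UMIs per 10,000 (median 11.4) and was seen in 31 of 31, against 55 of 589 UAT C1Q macrophages and 0 of 359 T or NK barcodes. After thinning FCN1 was seen in 14 of 31 and 7 of 586. VCAN, the proteoglycan versican, ran from 12.9 to 117 (median 39.5), against 0 to 87.8 (median 0) in C1Q macrophages. Both genes were therefore higher in the monocyte-like members as a group, although the ranges overlapped for each. Their summed CPM were 844 against 21.5 for FCN1 (39.3, 31.0 to 50.1) and 4587 against 437 for VCAN (10.5, 9.84 to 11.2). CCR2, the receptor that draws monocytes from blood, was seen in 20 of 31 (2.73, 1.89 to 3.87). CD14 stood at 603 against 2004 CPM (0.301, 0.263 to 0.343), CSF1R, the receptor for macrophage colony-stimulating factor, at 324 against 1251 (0.259, 0.215 to 0.309) and the scavenger receptor CD36 at 293 against 667 (0.438, 0.360 to 0.530). CLEC4E, a receptor for microbial glycolipids, had 0 UMIs against 136 and was at least 4.10-fold lower. Median depth was 11608 UMIs in the monocyte-like members and 5774 in the macrophages.

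Of 6954 genes at 20 CPM or more, 394 (5.67%) were at least 2-fold higher in monocyte-like members than in C1Q macrophages and 663 (9.53%) at least 2-fold lower, with a median log2 ratio of 0.00 over all of them. S100A8, S100A9 and C1q chose these groups, so the comparison describes them and tests nothing. NRG1 (neuregulin, a growth factor) was seen in 26 of 31 monocyte-like members with 111 UMIs, and in 3 of 589 C1Q macrophages with 3 UMIs (ratio 410, 137 to 2016). EREG (epiregulin) was seen in 16 of 31, with a ratio of 41.5 (28.6 to 61.7), and AREG (amphiregulin) in 21 of 31, with a ratio of 8.34 (7.44 to 9.35). Of the other genes named by rank, PLAC8 (128, 86.7 to 195), AQP9, a glycerol channel of leukocytes (21.2, 12.5 to 36.7), and APOBEC3A, a cytidine deaminase (18.2, 14.0 to 23.8), stood above C1Q macrophages. So did PTGS2 (14.2, 12.4 to 16.4), the thrombospondin gene THBS1 (13.4, 11.02 to 16.2), the azurocidin gene AZU1 (18.0, 12.9 to 25.4), ICAM3 (13.5, 8.75 to 20.9), PLBD1 (11.6, 9.96 to 13.5) and FAM65B (11.4, 7.99 to 16.3).

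**Figure D4:**
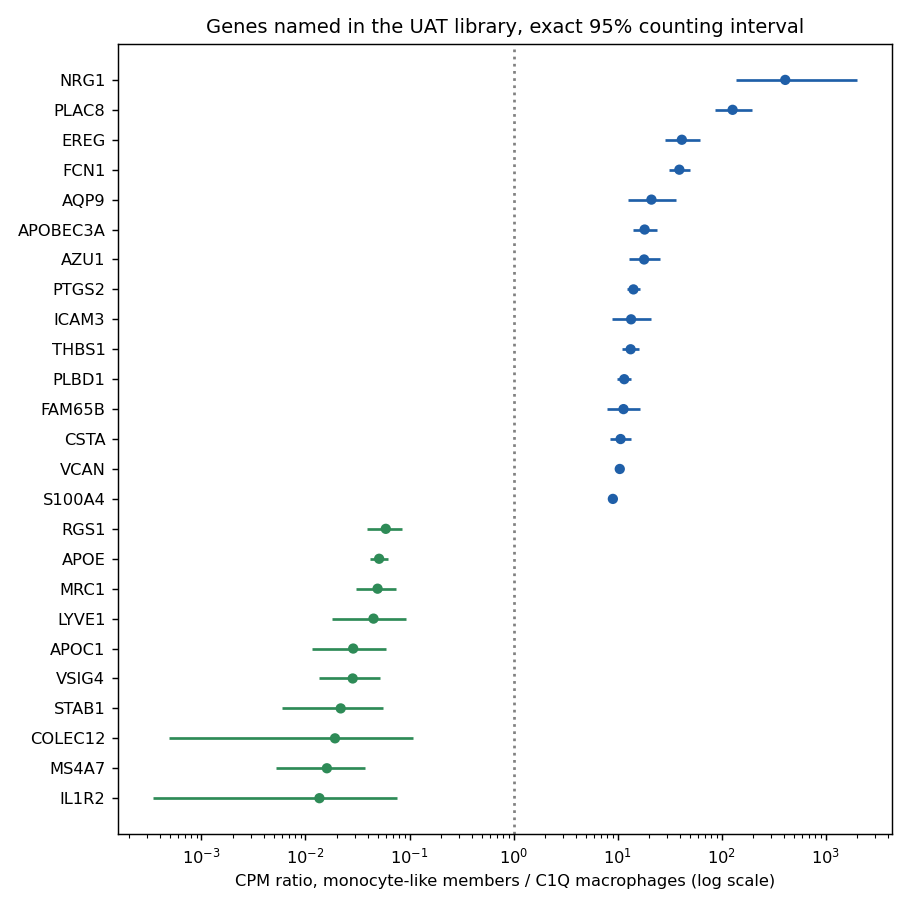
Ratio of summed CPM, monocyte-like members over C1Q macrophages of UAT (x axis, log scale), for the genes named by rank that had a UMI in both groups, with 95% intervals of counting error. NRG1 and PLAC8 lie farthest to the right and IL1R2 and MS4A7 farthest to the left.

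Resident macrophage genes were scarce in the monocyte-like members. FOLR2, a folate receptor of tissue macrophages, had 0 UMIs in all 31 and 1761 in C1Q macrophages, at least 53.0-fold lower. PMP22 was at least 36.2-fold lower and GPR34 at least 34.7-fold. The phagocytic receptor VSIG4 (0.0284, 0.0136 to 0.0524), the scavenger receptor STAB1 (0.0218, 0.00594 to 0.0559), the hyaluronan receptor LYVE1 (0.0451, 0.0181 to 0.0931) and the mannose receptor MRC1 (0.0493, 0.0309 to 0.0748) were lower. APOE, which carries lipid out of cells, stood at 272 against 5322 CPM (0.0511, 0.0417 to 0.0619). Of 13 tissue macrophage markers outside the genes used to choose the groups, 10 were lower and 1 higher. Over all genes compared 9.53% were lower and 5.67% higher. The higher one was MARCO, a scavenger receptor for bacteria, seen in 15 of 31 monocyte-like members and 52 of 589 C1Q macrophages (6.43, 5.17 to 7.97). CD163, the haemoglobin scavenger receptor, was seen in 30 of 31 monocyte-like members at 1633 against 2395 CPM (0.682, 0.628 to 0.739), short of 2-fold.

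Immediate early genes, which encode quickly induced transcription factors and regulators, were lower in the monocyte-like members for 9 of 13 genes and higher for 0 (median log2 ratio -1.05). FOS stood at 2508 against 8949 CPM (0.280, 0.263 to 0.299), JUN at 888 against 4325 (0.205, 0.184 to 0.229) and EGR1 at 293 against 1610 (0.182, 0.149 to 0.219). Genes of the cytokine list diverged, with 6 of 15 higher and 2 lower, the cytokine gene TNF and the receptor gene IL1R2. IL1B ran from 0 to 81.2 UMIs per 10,000 (median 9.47) in 30 of 31 monocyte-like members and from 0 to 107 (median 0) in 276 of 589 C1Q macrophages, a ratio of 2.52 (2.30 to 2.76) with overlapping ranges. TNF was lower (0.122, 0.0733 to 0.191), and IL1R2 had 1 UMI against 813. CXCL8, high in the neutrophil-like members, stood at 1868 against 2612 CPM (0.715, 0.662 to 0.771) here.

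Of 7 genes compared from the class II antigen presentation list, 1 was at least 2-fold lower in the 15 C1Q-positive members than in C1Q macrophages and 0 higher. The median log2 ratio was -0.67, and over all genes compared 4.79% were lower and 5.37% higher. The lower one was Mafa-DMB, which helps load peptide (0.434, 0.256 to 0.688). CD74 stood at 6797 against 7456 CPM (0.912, 0.851 to 0.975) and Mafa-DRA, the class II alpha chain, at 13477 against 13031 (1.03, 0.985 to 1.08). CD163 ran from 3.42 to 125 UMIs per 10,000 (median 37.5) in 15 of 15, and from 0 to 157 (median 26.2) in C1Q macrophages. The CD163 ranges overlapped, and the summed ratio was 1.77 (1.62 to 1.93). S100A8 was seen in all 15 members, from 15.8 to 280 per 10,000 with a median of 37.6, but the deepest of them (28488 UMIs) held 62.7% of the S100A8 UMIs of the 15. That barcode also held 89.2% of their S100A4, 98.4% of their AREG and 82.0% of their PTGS2 UMIs.

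Of 1901 genes at 100 CPM or more, 102 (5.37%) were at least 2-fold higher in C1Q-positive members than in C1Q macrophages and 91 (4.79%) at least 2-fold lower, with a median log2 ratio of 0.04. Genes for protein folding in the endoplasmic reticulum were higher for 4 of 13 and lower for 0 (median log2 ratio 0.80). HSP90B1, the chaperone of that compartment, ran from 2.59 to 159 UMIs per 10,000 (median 37.0) in 15 of 15 members and from 0 to 227 (median 8.33) in C1Q macrophages, with overlapping ranges. Its sums were 4262 and 1559 CPM (2.73, 2.50 to 2.98), and SDF2L1 (3.11, 2.43 to 3.93), PDIA4 (2.55, 2.09 to 3.09) and HSPA5 (2.03, 1.80 to 2.29) were the other 3. Without the deepest member the log2 ratio of HSP90B1 was 1.45, as with it, and 5 folding genes passed 2-fold. FCAR, the receptor for immunoglobulin A (3.21, 2.28 to 4.41), and the metal transporter SLC11A1 (2.63, 1.98 to 3.43) were also higher.

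Lipid-handling genes of macrophages were lower in the C1Q-positive members for 7 of 12 and higher for 0 (median log2 ratio -2.07). GPNMB had 1 UMI against 1487 (0.0221, 0.000559 to 0.123), TREM2, a lipid-sensing receptor, had 2 against 908 (0.0723, 0.00875 to 0.262), and LPL, the lipoprotein lipase, 2 against 991 (0.0663, 0.00801 to 0.240). SPP1 (osteopontin) had 0 against 2526 and was at least 25.6-fold lower, but its UMIs came from 31 of the 589 macrophages. CHIT1, the chitinase, was at least 14.6-fold lower and came from 28 macrophages. FOLR2 (0.168, 0.0766 to 0.319) and LYVE1 (0.382, 0.233 to 0.592) were lower as well, whereas MRC1 (1.22, 1.05 to 1.42) stayed within 2-fold. Glycolysis genes were higher for 4 of 9, and for 1 without the deepest member.

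Granule genes separated 1 barcode in each library. The UAT granule-gene barcode (7739 UMIs) held 1411 UMIs of S100A8 and S100A9 per 10,000, the highest of all UAT members, with 44 UMIs of CAMP, 39 of LCN2 (lipocalin), 14 of PGLYRP1 and 13 of LTF (lactoferrin). It also held 23 UMIs of the stromal gene DCN and was scored as a doublet. The CST granule-gene barcode (5243 UMIs) held 3317 per 10,000, with 150 UMIs of CAMP, 95 of LTF, 94 of OLFM4 and 93 of LCN2, and 0 of DCN. Both carried genes of secondary granules, which are made late in neutrophil development, while MPO and ELANE, made early, were at 0 in both. The immunoglobulin barcode of UAT (16816 UMIs) held 3287 of the members' 3291 UMIs of LOC102126084, annotated as a variable segment by RefSeq. It also held 95 UMIs of JCHAIN and 89 of MZB1, both plasma cell genes, and 1 of LYZ.

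Taken as 1 group, the 61 UAT members were compared with the 589 C1Q macrophages by gene list, leaving out genes that chose either group. Of 6835 genes at 20 CPM or more, 319 (4.67%) were at least 2-fold higher in the members and 426 (6.23%) at least 2-fold lower, with a median log2 ratio of -0.02. Glycolysis and hypoxia genes were higher for 10 of 13 and lower for 0 (median log2 ratio 1.21). SLC2A3, the glucose transporter of leukocytes (4.83, 4.26 to 5.48), the hexokinase gene HK3 (3.84, 2.33 to 6.21), LDHA (2.60, 2.32 to 2.91) and GAPDH (2.52, 2.35 to 2.69) were among them. The same list was higher for 10 of 13 and lower for 1 in the monocyte-like members, while the neutrophil-like members were lower than these for the 3 genes given above.

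**Figure D5:**
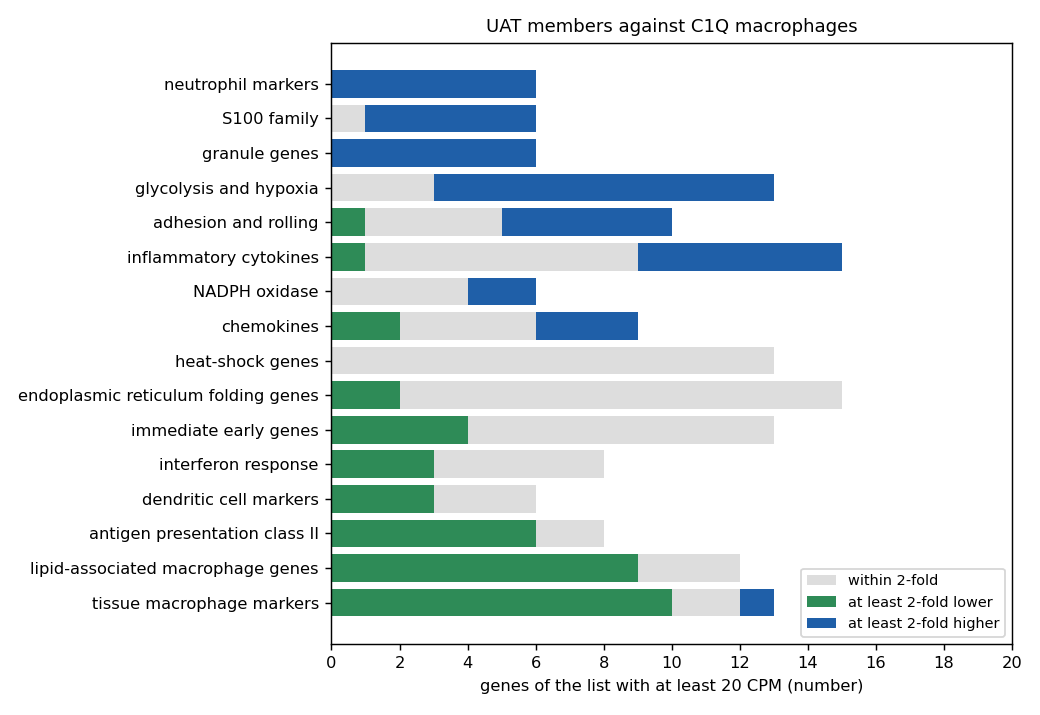
Number of genes in each list (x axis) that were at least 2-fold lower, within 2-fold or at least 2-fold higher in the 61 UAT members than in the 589 C1Q macrophages of UAT, leaving out genes that chose the groups. Glycolysis and S100 family genes lean to the higher side. Lipid-associated genes and genes of the class II antigen presentation list lean to the lower side.

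Of 6 other S100 genes compared, 5 were higher and 0 lower (median log2 ratio 2.38, or 2.46 with genes at 0 set to 3 UMIs). S100A4 (7.17, 6.71 to 7.66), S100A10 (4.38, 4.08 to 4.70) and S100A6 (2.67, 2.56 to 2.79) were higher. S100A12, a further alarmin, had 29 UMIs in 18 members and 0 in C1Q macrophages (at least 74.3-fold), and S100P had 32 in 17 (at least 82.0-fold); both reached 20 CPM through the members alone. Adhesion genes were higher for 5 of 10 and lower for 1, the higher ones including ICAM3 (12.2, 8.12 to 18.5), ITGAM (2.19, 1.85 to 2.58) and ITGA4 (2.18, 1.64 to 2.86). The formyl peptide receptors FPR1 (6.59, 4.26 to 10.2) and FPR2 (39.5, 17.4 to 105), which sense bacterial peptides, were higher, as was the oxidase subunit NCF1 (2.61, 1.88 to 3.59). Only 6 of 14 neutrophil markers and 7 of 17 granule genes reached 20 CPM, the granule genes including LYZ, a gene of the rule. Most of those outside the choice of groups did so through the members alone, so their direction is not read as a result. CSF3R stood at 116 against 4.96 CPM (23.4, 14.1 to 40.4), and G0S2, above 20 CPM in both groups, at 2143 against 887. LTF, LCN2 and PGLYRP1 came mainly from the granule-gene barcode, which held 90.7% of the LCN2 UMIs.

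Genes of the class II antigen presentation list were lower for 6 of 8 and higher for 0 (median log2 ratio -1.12). The lower ones were CD74 (0.465, 0.444 to 0.487), Mafa-DRA, Mafa-DMA, Mafa-DMB, CTSH and CD86. CTSH and CD86 are not class II genes themselves. Lipid-associated macrophage genes were lower for 9 of 12 and higher for 0, with APOE at 0.179 (0.164 to 0.195) and APOC1 at 0.0571 (0.0348 to 0.0883). Heat-shock genes were higher for 0 of 13 and lower for 0, and the cold-inducible genes, among them RBM3 (1.60, 1.39 to 1.83) and CIRBP (0.689, 0.544 to 0.861), stayed within 2-fold for 3 of 3. Folding genes of the endoplasmic reticulum were higher for 0 of 15 and lower for 2, DDIT3 and HERPUD1, over all members at 20 CPM or more. In the C1Q-positive members alone, at 100 CPM or more, 4 of 13 were higher and 0 lower. Interferon-response genes were lower for 3 of 8. CXCL8 stayed within 2-fold over all members (1.08, 1.02 to 1.14), of whose 551102 UMIs the neutrophil-like members held 14728.

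Within the 61 UAT members S100A8 and S100A9 varied together (Spearman rho 0.85 across cells). Of 4572 genes ranked against the sum of both, PLAC8 (0.61), S100A12 (0.59) and QPCT, a glutaminyl cyclase gene (0.56), were the most alike, and CD74 (-0.47) was among the 5 least alike. Depth was nearly unrelated (-0.11). In the 31 monocyte-like members S100A4 (0.78), ALDH2 (0.68), PLBD1 (0.67) and S100A12 (0.67) were the most alike of 5418 genes, and depth had a rho of -0.42. These values describe cells of 1 library that share its background RNA, and their dependence on depth was not tested.

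Markers of other cell types were low but not absent from the UAT members. Summed endothelial markers stood at 640.5 CPM in the members and 284 in C1Q macrophages. CLDN5, a tight-junction gene of vessels, had 58 UMIs in the monocyte-like members, all in 1 cell. The deepest monocyte-like member (47389 UMIs) and another with 40 DCN UMIs (17192 UMIs) were scored as doublets. Without doublets in either group, 867 genes instead of 663 were at least 2-fold lower in monocyte-like members than in C1Q macrophages, and 393 instead of 394 higher. Stromal markers stood at 758 and 459 CPM with all 8 of 8 genes seen, T cell markers at 83.5 and 345, NK markers at 18.1 and 42.0, dendritic cell markers at 225 and 507 and germ cell markers at 3.63 and 9.91. B and plasma cell markers stood at 432 and 39.2 CPM, and the immunoglobulin barcode held 226 of the members' 238 UMIs of this list. The 13 neutrophil-like members had 0 UMIs of the dendritic, T, NK, B, mast, germ and erythroid lists. With 3 UMIs there at 204 CPM, a list of low level could go unseen in them. Their stromal markers stood at 1018 CPM, with a UMI in 10 of 13. Endothelial and smooth muscle markers each stood at 339 CPM there and Sertoli and Leydig markers each at 272, all from few UMIs. The part of endothelial and stromal RNA in the results above was not tested.

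The 12 CST members repeated the main kinds at lower number. C1Q macrophages numbered 589 in UAT and 86 in CST, so members were 9.38% (7.25 to 11.9) of members plus C1Q macrophages in UAT and 12.2% (6.49 to 20.4) in CST, intervals that overlap. The 6 neutrophil-like CST members held 750 to 1677 UMIs and ran from 27.8 to 470 S100A8 and S100A9 UMIs per 10,000 with a median of 209. SOD2 and SORL1 were seen in 6 of 6, FCN1 and S100A4 in 0 of 6. CXCL8 ran from 0 to 283 per 10,000 (median 173) in them, and its sum was 17053 CPM (13989 to 20589), against 24986 in the UAT neutrophil-like members. The 4 monocyte-like CST members held VCAN at 10.7 to 112 and S100A4 at 25.4 to 51.0 per 10,000, and FCN1 in 2 of 4. SORL1 was seen in 0 of these 4. FCN1 thus overlapped at 0 between the kinds in CST, unlike in UAT at full depth.

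Over all members CXCL8 stood at 4361 CPM (3727 to 5073) in CST and 2818 in UAT, but neutrophil-like barcodes were 6 of 12 and 13 of 61. MARCO had 0 UMIs in the 12 CST members, where 3 UMIs would be 77.9 CPM, and 0 in the 86 CST C1Q macrophages, against 24 of 61 UAT members and 52 of 589 UAT C1Q macrophages. Germ cell RNA was present in every CST member: PRM1, the protamine gene of spermatids, had 96 UMIs in 12 of 12, and summed germ cell markers stood at 5296 CPM, while the UAT members had 1 PRM1 UMI. The share of germ cell RNA in the other CST values was not tested. S100A8 was also seen outside the members in 4.59% of CST barcodes at a median depth of 26490.5 UMIs, where S100A9 was seen in 0.173%, against 1.57% and 1.33% in UAT. The 2 libraries shared 50 cell barcodes, 0 of them members.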

How the data were processed

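Whole-testis cell suspensions were captured with the Chromium Single Cell 3' v3 kit, per the labels' protocols. The deposited values are UMI counts per gene and barcode in 1 matrix per library. Cell Ranger was version 3.0.1 per the submitters' processing notes and 5.0.0 per the file headers. The notes name the mouse build mm10, but the deposited features are macaque RefSeq genes, so no coordinates or sequences are printed. Of 28845 features, 11526 had LOC names, and 721 of these were given a symbol through the RefSeq gene table.

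UAT held 12564 barcodes and 111047299 UMIs (median 7193.5 per barcode), CST 15952 and 197225937 (median 5438.5). The protocol aimed at 8000 to 10000 cells per library, fewer than the 12564 and 15952 barcodes, of which 12352 and 15001 had 500 or more genes. Counts were summed over the cells of a group and scaled to CPM. Ratios carry exact conditional binomial 95% intervals, levels exact Poisson and shares Clopper-Pearson intervals, all of counting error only. A gene counted as higher or lower past 2-fold on the log2(CPM + 10) scale, which understates low genes, if it reached 20 CPM in the higher group (100 CPM for C1Q-positive and 500 CPM for neutrophil-like members, set after totals were seen). With 1 library per position no p-value was computed. T or NK barcodes of CST were not used.

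The members and the 42 gene lists (413 of 440 genes found) were chosen with earlier results of these data known. For members against C1Q macrophages the 15 highest and 15 lowest genes, ranked by the interval bound nearest 1, were named, provided the higher group reached 100 CPM with 30 or more UMIs and no single cell gave over 25% of them. Mitochondrial, ribosomal and haemoglobin genes, features without a symbol and genes that chose the groups were left out. Up to 4 genes per list were added by level, and all cell type markers. The same ranking was applied to the kinds of members once these were defined, and the remaining genes were named after their values were seen. No doublet was removed, as in the rule. A simulated-neighbour score at 0.8% per 1000 barcodes marked 1221 UAT (9.89%, 4 members) and 1800 CST barcodes (12.0%, 1 member). Intervals and calls were tested on simulated Poisson counts without variation between cells, where 95.6% of the intervals of unchanged genes held a ratio of 1. That setting cannot show how the intervals behave where few cells hold most UMIs of a gene. Python 3.11.15, numpy 2.4.6, scipy 1.17.1, pandas 2.3.3, scikit-learn 1.9.0 and matplotlib 3.10.9 were used. Some genes are not reported here.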

Additional observations from a re-analysis of the deposited data

How the results depend on the processing

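No paired analysis was possible because each position had 1 library. Members numbered 44 to 71 in UAT and 7 to 13 in CST over all limits tried, with 7 in CST at 1000 genes. That limit left 0 neutrophil-like members in UAT and 1 in CST and raised the share of UAT members with FCN1 from 57.4% to 74.5%. A limit of 200 genes gave 20 neutrophil-like members in UAT, and an S100A8 and S100A9 minimum of 50 per 10,000 left 7 C1Q-positive members. CXCL8 in UAT members was 3636 CPM at that minimum, 2213 at 1000 genes and 6913 as a mean over cells. In CST it was 6714, 2805 and 8892, and 3610 without doublets. Against C1Q macrophages the counts of genes higher and lower were 641 and 726 as means over cells, 929 and 1552 after thinning to 1000 UMIs (median log2 ratio over all genes -0.13), and 145 and 162 at 100 CPM. The lower count was 686 at the minimum of 50 and 723 with a pseudocount of 1 CPM. For monocyte-like members 601 were higher with a pseudocount of 1 CPM, and 189 and 234 passed at 100 CPM. For C1Q-positive members 179 were higher as a mean over cells. No gene named by rank reversed its direction, and the other called genes were not checked for this one by one. The median log2 ratio over all genes for members against C1Q macrophages, -0.02, was 0.02 with totals without mitochondrial, ribosomal, S100A8, S100A9 and LYZ UMIs. Over 14 alternatives glycolysis genes were higher for 8 to 10 and genes of the class II antigen presentation list lower for 6 to 7. The alternatives on the monocyte-like, C1Q-positive and neutrophil-like comparisons, single barcodes, the 200-gene limit and a LYZ limit of 20 were chosen after seeing the data. The causes were not tested. In the neutrophil-like members of UAT 3 UMIs were 204 CPM.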
